A study of Mus musculus with 6 samples.

Results

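The 10 circadian clock genes described here were followed in RNA of cells sorted from mouse calf muscle 3 hours after electrically driven contractions: Arntl, Clock, Npas2, Per1, Per2, Per3, Cry1, Nr1d1, Nr1d2 and Dbp. They were chosen by symbol, and each matched 1 row, so that the 10 members stood among 53715 genes of the deposited gene table. Arntl, Clock and Npas2 form the activating arm, and the other 7 the repressing and output arm. The libraries came from wild-type male C57BL/6J mice aged 14 weeks. In the stimulated group (3 mice) the crural muscles made 40 contractions, 20 eccentric and 20 concentric, in about 10 minutes; the sham group (3 mice) received no stimulation. Cells of the gastrocnemius-soleus complexes were gated as CD146+CD45-CD31- pericytes, the mural cells of capillaries. The mice lived in a light-dark cycle, but the labels used here state no hour of collection for any animal.

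The clock is a feedback loop of transcription that most cells run by themselves. ARNTL (also called BMAL1) pairs with CLOCK or its relative NPAS2, binds E-boxes and switches on the Per, Cry, Nr1d and Dbp genes. PER and CRY proteins then block the pair, while NR1D1 and NR1D2 (REV-ERB alpha and beta) repress Arntl, so that Arntl and Nr1d1 peak at opposite times of day. In skeletal muscle the loop times genes of fuel use, and Per1 and Per2 can also be induced directly by glucocorticoids and by cAMP signalling, outside the loop.

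Estimated counts summed to between 17520338 and 23709220 per library. In RNA, the sort label was not borne out by its own antigens. Both excluded antigens had more counts than the selected one in every library, without scaling for gene length. Mcam, which encodes CD146, lay between 24.3 and 105 CPM (counts scaled by library size with TMM factors), whereas Ptprc, which encodes the excluded CD45, lay between 194 and 1035 CPM and Pecam1, which encodes the excluded CD31, between 384 and 1277 CPM. The summed level of 15 endothelial markers was 2849 to 4341 CPM in stimulated and 4534 to 11461 CPM in sham libraries, and that of 12 lymphocyte markers 1068 to 1349 CPM against 157 to 1314 CPM. Both extremes, 11461 CPM endothelial and 157 CPM lymphocyte, were in sham replicate 2. The 10 pericyte markers summed to 182 to 411 CPM and 333 to 697 CPM. None of these markers was at 0 in any library. In such mixed RNA, fewer cells of a type and less RNA per cell cannot be told apart.

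No clock gene passed the test. By edgeR's quasi-likelihood test with Benjamini-Hochberg adjustment over all genes, 0 of the 10 members and 0 of all 26559 genes tested (0.0%) had an adjusted p under 0.05. All 10 members had a log2 fold change below 0 in the gene table and 0 above it, beside 52.0% and 48.0% of all genes. Their median was -0.34, beside -0.02 over all genes. At an unadjusted p under 0.05, 1 member was lower (Nr1d1) and 0 higher, against 4.41% and 2.64% of all genes. In 1 member the groups did not overlap with stimulated below, and in 0 with stimulated above, beside 5.89% and 6.12% of all genes. DESeq2 and limma voom were run on the same 26559 genes. DESeq2 gave 6724 of them no adjusted p, and called 0 members and 227 genes. By limma voom 0 members and 0 genes were called. Each also had 1 member at an unadjusted p under 0.05. At that limit DESeq2 had 1237 genes lower and 805 higher, and limma voom 1027 lower and 836 higher.

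The direction of Per2 and Cry1 depended on how reads were counted. The gene table follows TPM (a level per length, scaled to a fixed total per library), so a few reads on a very short transcript can outweigh far more reads on the full-length one. When each gene's estimated reads were summed over its transcripts instead, 8 members were lower and 2 higher, where 52.4% and 47.6% of all genes were. At an unadjusted p under 0.05, 2 members were lower (Nr1d1, Per3) and 1 higher (Per2), beside 5.0% and 2.49% of all genes, or 7.49% in either direction. Again 0 members had an adjusted p under 0.05, and 1 gene of 26548 tested did (0.00377%). Both countings are therefore given for each member.

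Promoter sequences are shown for the members with an E-box or a D-box just before the start, and for Nr1d1 as the member with the largest difference. The 13 RefSeq windows (GRCm38.p6) matched 9 members, all but Per2. Arntl, Clock and Per1 had more than a single window, and a match in any window counted. In the 250 bases before the start, searched on both strands, the E-box CACGTG was found for Per1 and Cry1, beside 6.86% of the 27025 genes in the table. The D-box TTANGTAA was found for Per3 alone, at 2 places, beside 2.44% of genes. A short core of the NR1D and ROR receptor element, AGGTCA after any base or TGGGTCA, was found for Clock, Per1 and Nr1d2, beside 18.7%. For Clock it lay in a single window, 76303503 to 76303752, within the annotated gene. The E-box and the receptor core of Per1 lay only in the window shown. Only this core was searched, so whether the full receptor element is present was not tested. The full cAMP element TGACGTCA was found for 0 members, beside 1.77%, and its core TGACG, which the full element contains, for Per1 and Cry1, beside 19.8%. Nothing outside these 250 bases was searched, so a member without a match may hold the letters elsewhere. A match is a stretch of letters and no evidence of binding. The stretches below run 5′ to 3′ on the gene's strand and hold no annotated exon base. Those of Cry1, Per3 and Nr1d1 lie before the annotated gene. That of Per1 lies within its gene, which is annotated from 69095217, so it follows the first annotated exon base. Capitals mark the letters of the E-box, the D-box and the receptor core.
Per1, chr11:69098699-69098947, plus strand: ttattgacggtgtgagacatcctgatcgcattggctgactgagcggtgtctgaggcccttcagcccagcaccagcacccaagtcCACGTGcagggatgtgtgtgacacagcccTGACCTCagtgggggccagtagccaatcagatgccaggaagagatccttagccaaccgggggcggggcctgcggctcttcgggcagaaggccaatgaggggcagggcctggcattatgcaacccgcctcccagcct
Cry1, chr10:85185065-85185304, minus strand: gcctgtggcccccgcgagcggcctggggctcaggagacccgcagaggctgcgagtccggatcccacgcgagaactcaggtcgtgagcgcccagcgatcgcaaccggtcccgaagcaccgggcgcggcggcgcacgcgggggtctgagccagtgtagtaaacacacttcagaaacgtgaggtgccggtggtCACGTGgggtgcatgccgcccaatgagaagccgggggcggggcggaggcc
Per3, chr4:151044666-151044915, minus strand: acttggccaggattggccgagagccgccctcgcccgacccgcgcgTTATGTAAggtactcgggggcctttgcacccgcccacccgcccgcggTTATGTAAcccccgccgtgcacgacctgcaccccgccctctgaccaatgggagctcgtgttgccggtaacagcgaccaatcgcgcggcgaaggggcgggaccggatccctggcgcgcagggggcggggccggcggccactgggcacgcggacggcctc
Nr1d1, chr11:98775378-98775627, minus strand: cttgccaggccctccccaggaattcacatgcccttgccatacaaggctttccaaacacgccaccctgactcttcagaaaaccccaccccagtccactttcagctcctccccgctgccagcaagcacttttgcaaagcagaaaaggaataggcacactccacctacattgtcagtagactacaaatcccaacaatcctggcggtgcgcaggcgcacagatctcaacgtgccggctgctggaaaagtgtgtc

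**Figure D1:**
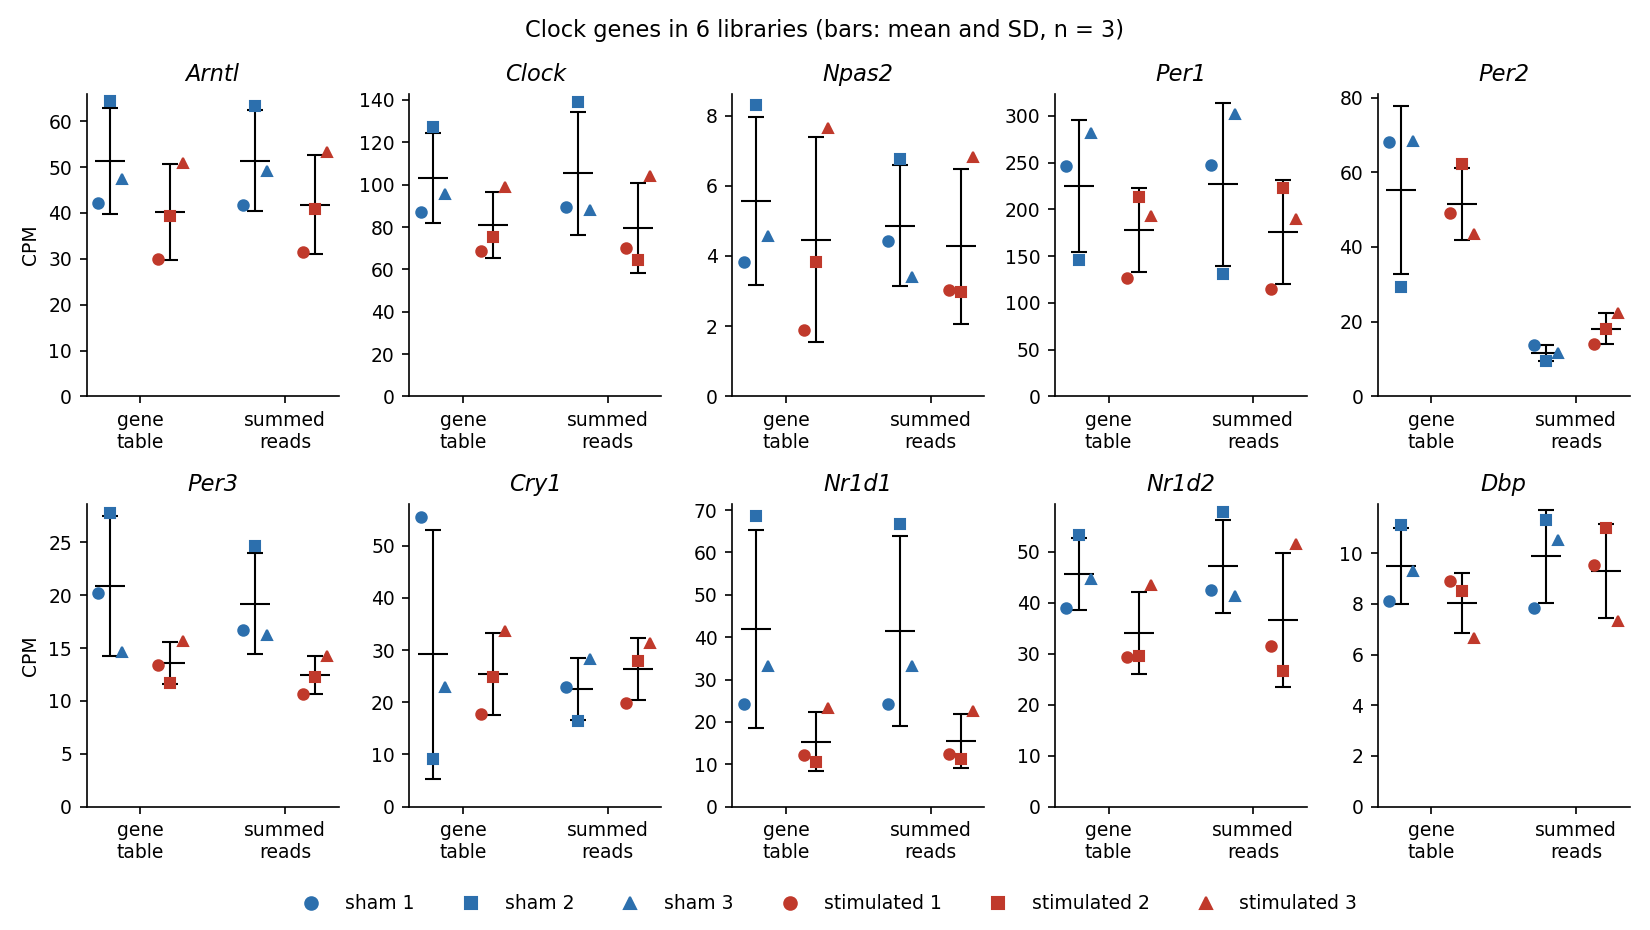
CPM of each clock gene in every library, from the gene table (left pair in each panel) and from reads summed over transcripts (right pair); symbols are libraries, and black bars the mean and SD of 3. Nr1d1 is lower in every stimulated library under both countings, and Per2 changes both its level and its order of libraries between them.

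Arntl encodes the partner without which the activating complex does not form (ENSMUSG00000055116.8, chromosome 7, 113207465 to 113314126, GRCm38). It stood at 30.0, 39.4 and 50.9 CPM in stimulated replicates 1, 2 and 3 and at 42.2, 64.3 and 47.4 CPM in sham replicates 1, 2 and 3 in the gene table. Stimulated replicates 1 and 2 lay below all sham libraries, while stimulated replicate 3 lay above 2 of them, so the groups overlapped. The log2 fold change was -0.35 (SE 0.28; adjusted p = 0.916 by edgeR), and -0.30 (SE 0.26) from summed reads. With each library left out the gene table gave -0.56 to -0.13, the ends being without stimulated replicates 3 and 1, and -0.15 without sham replicate 2.

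Clock, whose protein is a histone acetyltransferase as well as the DNA-binding partner (chromosome 5, 76209868 to 76304792), had the same order of libraries as Arntl in the gene table, but not from summed reads, where stimulated replicate 2 was lowest. Its gene table values were 68.9, 75.4 and 98.8 CPM after stimulation and 86.9, 127 and 95.4 CPM in sham. With a log2 fold change of -0.35 (SE 0.26), and -0.40 (SE 0.28) from summed reads, it had an adjusted p of 0.904 by edgeR in the gene table, and was -0.16 there without sham replicate 2 and -0.19 without stimulated replicate 1. Npas2, the substitute for CLOCK (chromosome 1, 39193731 to 39363236), was the scarcest activator. Only 58, 59 and 156 estimated reads fell on it after stimulation, and 101, 125 and 64 in sham mice. The gene table gave 1.90, 3.84 and 7.65 CPM against 3.82, 8.29 and 4.57 CPM, with each group spread over most of the other's range. Its log2 fold change was -0.31 (SE 0.52), and 0.10 without sham replicate 2 and 0.11 without stimulated replicate 1, so its direction turned with 1 library.

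Nr1d1, the repressor of Arntl, showed the largest difference among the 10 (ENSMUSG00000020889.11, chromosome 11, 98767932 to 98775333). Stimulated replicates 1, 2 and 3 held 12.1, 10.6 and 23.3 CPM and sham replicates 1, 2 and 3 held 24.3, 68.5 and 33.3 CPM in the gene table. Every stimulated library lay below every sham library, although stimulated replicate 3 and sham replicate 1 were nearly level. The means were 15.4 ± 6.92 and 42.0 ± 23.3 CPM (SD, n = 3), a ratio of 0.365. The log2 fold change was -1.45 (SE 0.45), with an unadjusted p of 0.00981 and an adjusted p of 0.574 by edgeR. Summed reads gave -1.42 (SE 0.41; unadjusted p = 0.0066, adjusted p = 0.488, edgeR), with 239, 224 and 519 reads against 552, 1234 and 628.

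The size of the Nr1d1 difference leaned on sham replicate 2. Without that library the log2 fold change was -0.90 (SE 0.38), and over the 6 fits that each left out 1 library it ran from -1.88 to -0.90. Sham replicate 2 was also the library with the most endothelial marker RNA, and the endothelial sum placed the groups apart in the same way as Nr1d1 did: 2849, 3146 and 4341 CPM after stimulation and 4534, 11461 and 6737 CPM in sham. The pericyte, smooth muscle and myeloid sums were also highest in sham replicate 2, at 697, 342 and 727 CPM, but their groups overlapped. The lymphocyte, neutrophil, fibro-adipogenic, satellite cell and myofibre sums were not highest there. The part of any of these marker levels in the Nr1d1 difference was not tested. Thra, the thyroid hormone receptor alpha gene, runs on the opposite strand and shares 1075 bases with the 3′ end of Nr1d1 (chromosome 11, 98767932 to 98769006). It stood at 16.1, 25.3 and 33.3 CPM against 35.9, 139 and 73.5 CPM, again lower in every stimulated library, as in 5.89% of all genes. Its log2 fold change was -1.73 (SE 0.48, adjusted p = 0.521, edgeR). The library kit keeps strand, but no source used here states the strand setting of the counting, so reads from the shared bases may have been assigned to either gene.

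**Figure D2:**
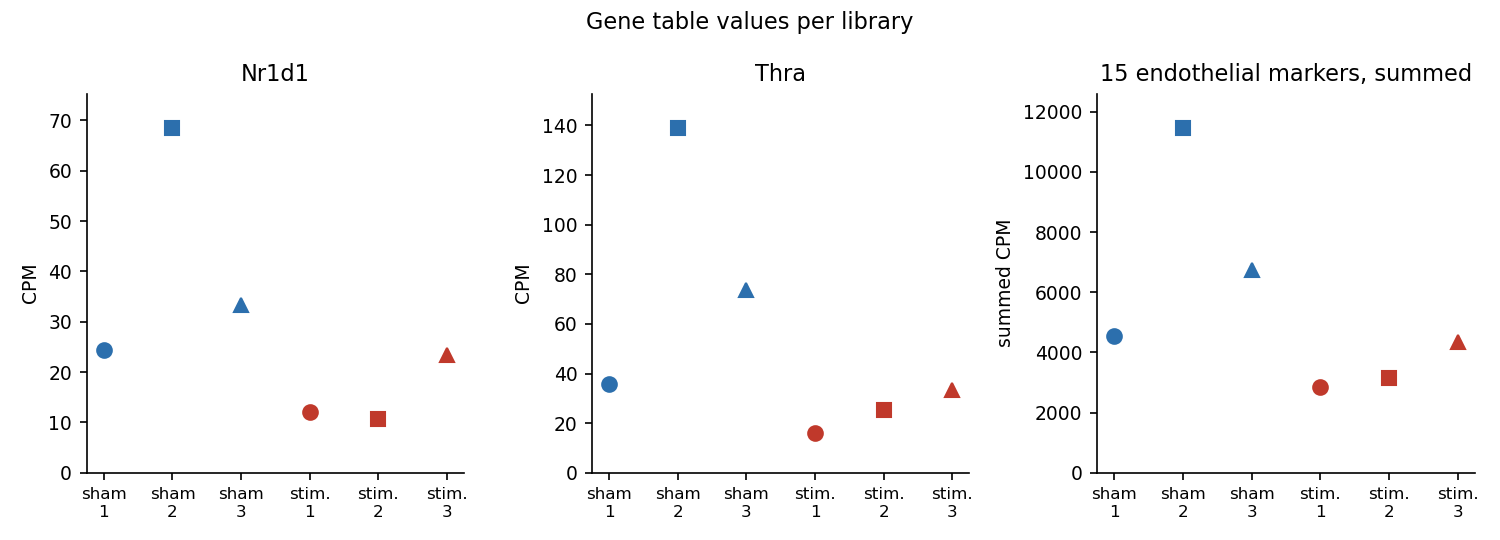
Nr1d1 and Thra in CPM and the summed CPM of 15 endothelial markers, per library (circle, square and triangle for replicates 1, 2 and 3; blue sham, red stimulated), from the gene table. In all 3 panels the sham libraries lie above the stimulated ones and sham replicate 2 is highest, at 68.5, 139 and 11461 CPM.

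Nr1d2, the second REV-ERB repressor (chromosome 14, 18204054 to 18239127), did not share the gap. It stood at 29.3, 29.6 and 43.4 CPM after stimulation and 39.0, 53.2 and 44.7 CPM in sham. Stimulated replicates 1 and 2 lay below all sham libraries and stimulated replicate 3 lay within them. Its log2 fold change was -0.42 (SE 0.26; adjusted p = 0.842, edgeR), and -0.37 (SE 0.29) from summed reads. It was -0.27 without stimulated replicate 1 and -0.63 without stimulated replicate 3, and from summed reads ran from -0.70 without stimulated replicate 3 to -0.18 without stimulated replicate 2. Whether it differs from the Nr1d1 value was not tested.

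Per1 was the most abundant Period gene (ENSMUSG00000020893.17, chromosome 11, 69095217 to 69109960). It stood at 127, 213 and 193 CPM in the stimulated libraries and 246, 146 and 282 CPM in the sham libraries. Stimulated replicate 1 and sham replicate 2 were low and close together, and the other 2 sham libraries lay above all others. The log2 fold change was -0.34 (SE 0.33; adjusted p = 0.952, edgeR) and -0.37 (SE 0.36) from summed reads. Without sham replicate 2 it was -0.56, without sham replicate 3 it was -0.12, and without stimulated replicate 1 it was -0.11.

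Per2, the Period gene that couples the clock to NR1D1 and to metabolic nuclear receptors, gave opposite answers under the 2 countings (ENSMUSG00000055866.9, chromosome 1, 91415982 to 91459324). The gene table held 49.2, 62.1 and 43.4 CPM after stimulation and 68.0, 29.4 and 68.4 CPM in sham, with overlapping groups and a log2 fold change of -0.10 (SE 0.34; adjusted p = 0.993, edgeR). Those values rest mostly on a noncoding 231-base transcript (ENSMUST00000185298.1), which received 10.2, 13.9 and 10.3 estimated reads against 16.1, 5.5 and 16.3. It made up 85.8 to 95.9% of the Per2 TPM but 2.0 to 7.4% of the reads, its effective length being 22.8 to 26.4 bases. Summed over both transcripts, Per2 had 267, 360 and 510 reads in stimulated and 313, 173 and 221 in sham libraries, which is 13.9, 18.1 and 22.3 CPM against 13.8, 9.36 and 11.7 CPM. Every stimulated library now lay above every sham library, as in 6.08% of all genes, though stimulated replicate 1 and sham replicate 1 were almost equal. The log2 fold change was 0.64 (SE 0.26), with an unadjusted p of 0.0364 and an adjusted p of 0.633 by edgeR. It stayed between 0.47 and 0.80 when each library was left out, and was 0.74 (SE 0.27) for the 5833-base coding transcript alone.

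Per3, a Period gene that is dispensable for the core rhythm (chromosome 4, 151003652 to 151044665), lay on the other side. It had 206, 245 and 326 summed reads after stimulation and 380, 456 and 305 in sham, or 10.7, 12.3 and 14.3 CPM against 16.7, 24.7 and 16.2 CPM. The groups did not overlap, as in 6.03% of all genes with stimulated below. Summed reads gave a log2 fold change of -0.62 (SE 0.25; unadjusted p = 0.0351, adjusted p = 0.633, edgeR). In the gene table it was also -0.62 (SE 0.30), but stimulated replicate 3 at 15.7 CPM passed sham replicate 3 at 14.6 CPM. Without sham replicate 2 the value was -0.35 in the gene table and -0.43 from summed reads. For the coding transcript alone it was -0.65 (SE 0.54). That transcript had 38.1, 101 and 118 reads after stimulation and 62.3, 170 and 164 in sham, so the groups overlapped.

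Cry1, the strongest repressor of the ARNTL and CLOCK pair (chromosome 10, 85131700 to 85185064), had 17.8, 24.9 and 33.6 CPM after stimulation and 55.5, 9.10 and 23.0 CPM in sham in the gene table. The highest of these, in sham replicate 1, came from 4.6 reads assigned to a 177-base transcript (ENSMUST00000214675.1) with an effective length of 7.0 bases, which carried 63.7% of the Cry1 TPM there and 0.9% of the reads. No other library had a read on it. Summed reads put Cry1 at 19.8, 27.9 and 31.3 CPM against 23.0, 16.4 and 28.2 CPM, with interleaved groups. The log2 fold change went from -0.20 (SE 0.55) in the gene table to 0.23 (SE 0.27; adjusted p = 0.979, edgeR), and the gene table itself gave 0.66 without sham replicate 1.

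**Figure D3:**
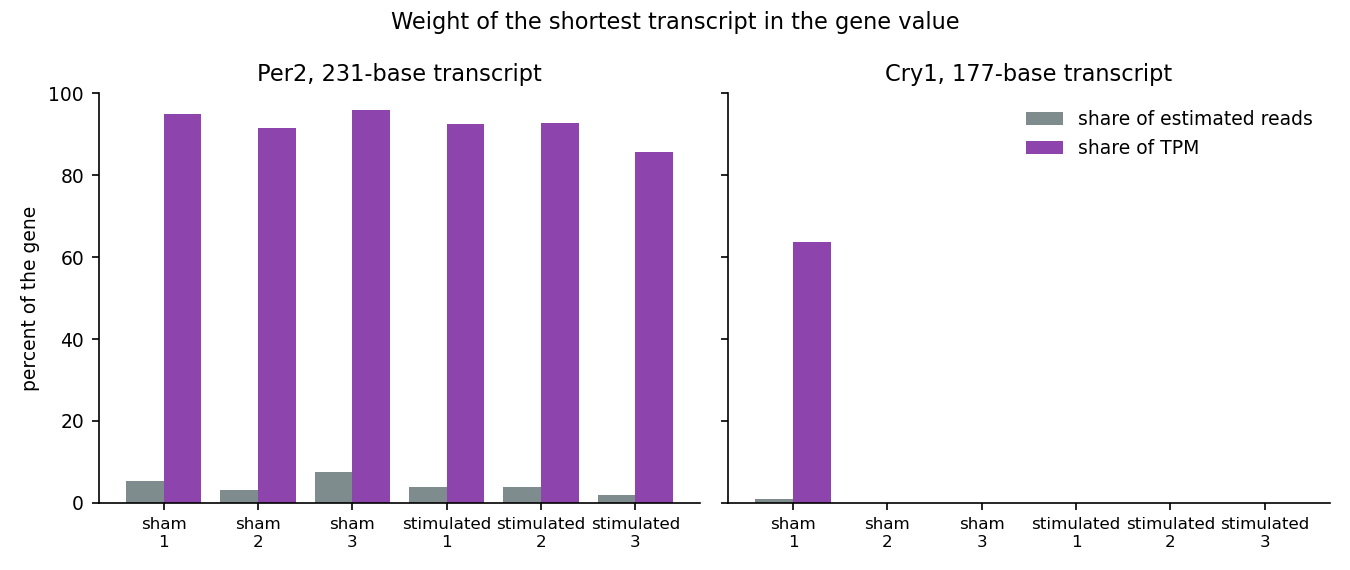
Share of a gene's estimated reads (grey) and of its TPM (purple), in percent, held by the shortest transcript of Per2 and of Cry1 in each library. The Per2 transcript holds 2.0 to 7.4% of reads and 85.8 to 95.9% of TPM, and the Cry1 transcript is present in sham replicate 1 only.

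Dbp, a PAR bZIP factor that carries the rhythm to output genes through D-boxes (chromosome 7, 45705088 to 45710203), stood at 8.90, 8.52 and 6.67 CPM after stimulation and 8.13, 11.1 and 9.29 CPM in sham, and the groups overlapped. The log2 fold change was -0.24 (SE 0.28; adjusted p = 0.967, edgeR) and -0.09 (SE 0.27) from summed reads. The gene table gave -0.11 without sham replicate 2 and -0.13 without stimulated replicate 3. Dbp overlaps Sphk2 and Arntl overlaps Gm45355, each on the opposite strand, and Per3 overlaps Camta1 on the same strand; how many reads were shared was not tested.

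**Figure D4:**
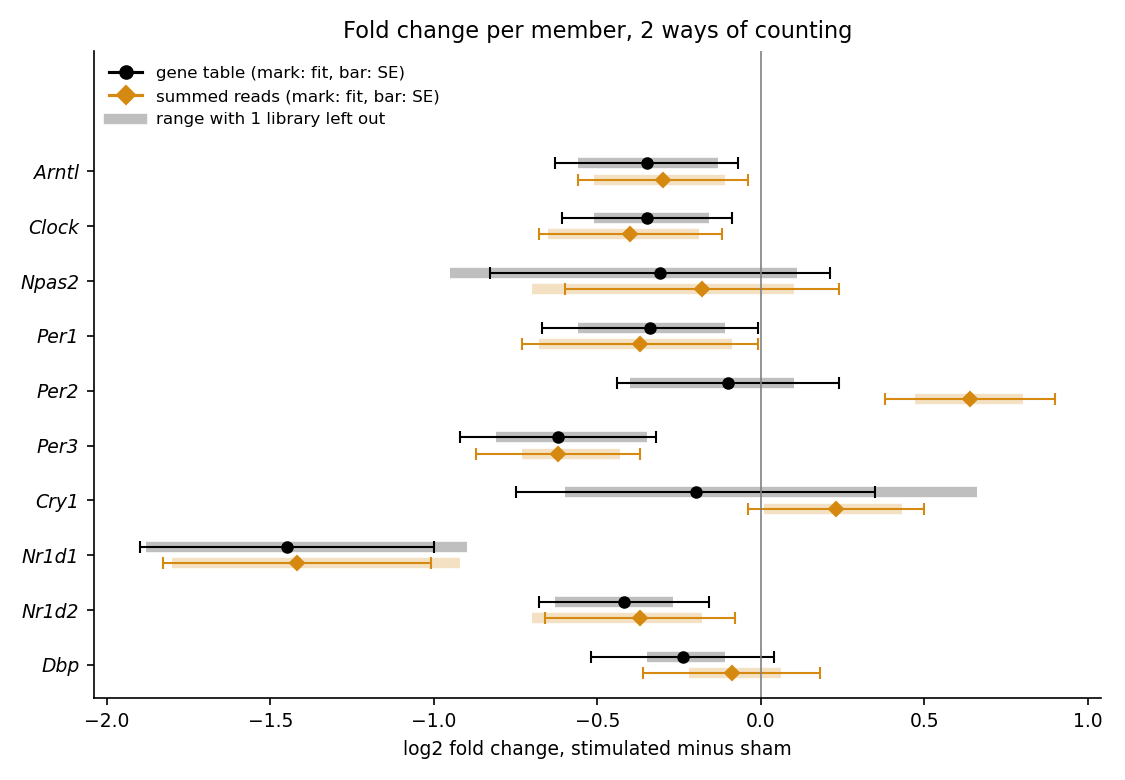
Log2 fold change of each member with its SE from the gene table (black) and from summed reads (orange); shaded bars span the fits that leave out 1 library. Arntl, Clock, Per1, Per3, Nr1d1 and Nr1d2 stay below 0 throughout. Per2 stays above 0 from summed reads only, and the gene table range of Cry1 runs from -0.60 to 0.66.

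Library by library, the clock genes did not move as 1 block. From summed reads, sham replicate 2 had the highest level of Arntl, Clock, Per3, Nr1d1, Nr1d2 and Dbp and at the same time the lowest of Per2 and Cry1. Relative to each gene's mean over the 6 libraries, that library stood at 1.5 for Nr1d1 and 0.64 for Clock on the log2 scale, and at -0.61 for Per2 and -0.54 for both Per1 and Cry1. Stimulated replicate 3 had the highest Npas2, Per2 and Cry1, at 0.67, 0.64 and 0.39 on the same scale. Stimulated replicates 1 and 2 were low in Arntl, Clock, Npas2, Per3, Nr1d1 and Nr1d2, from -0.16 for Arntl to -1.06 for Nr1d1, both in replicate 2. For all members but Per2 and Per3, the 3 sham libraries spanned more on this scale than the size of the fold change between the groups.

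**Figure D5:**
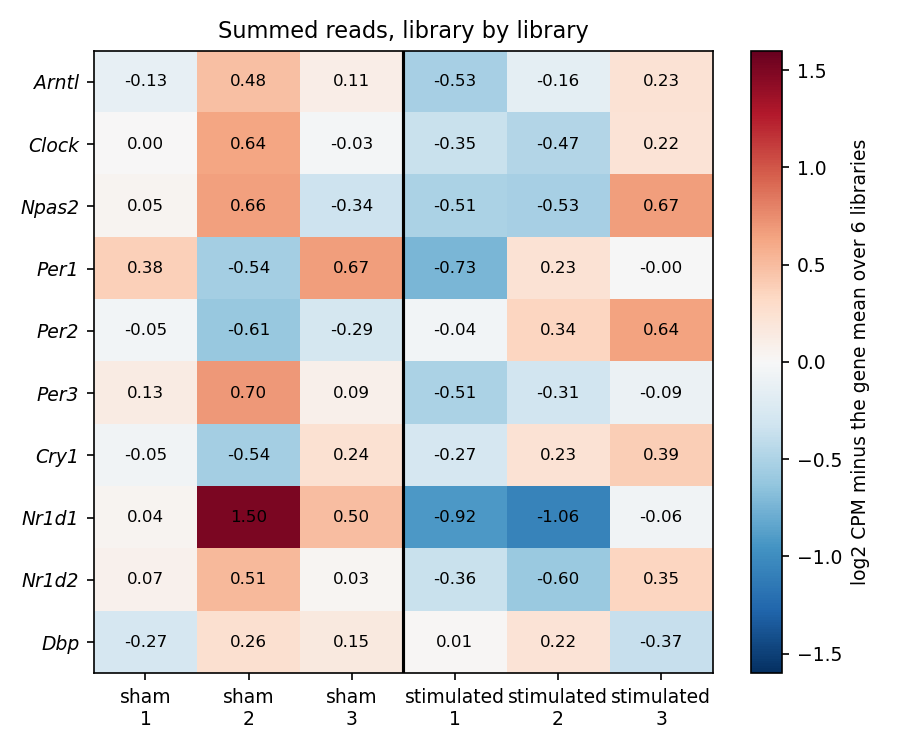
Log2 CPM from summed reads minus the gene's mean over the 6 libraries, with sham to the left of the line and stimulated to the right. Sham replicate 2 is high for most members and low for Per1, Per2 and Cry1.

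Levels of the members were compared with each other per length, as TPM within a library. Summed over all transcripts, Per1 ranked first of the 10 in 5 libraries and second in sham replicate 2, at the 83.9th to 90.7th percentile of the genes tested. A 496-base transcript held 42.5 to 54.4% of the Per1 TPM on 5.7 to 7.9% of its reads, so this rank too leans on a short transcript. Per3 and Npas2 had the lowest mean ranks, 9.67 and 9.17, with Npas2 at the 25.4th to 53.9th percentile. Per2 ranked 2 to 6 by this measure. Over coding transcripts of at least 1000 bases, a limit chosen after the short Per2 and Cry1 transcripts were seen, Per2 ranked 7 or 8 in every library, with 0.047 to 0.125 TPM against 0.403 to 1.19 TPM for Per1. On that measure Arntl (0.432 to 1.53 TPM), Per1 and Clock (0.371 to 1.43 TPM) held the upper ranks in every library but sham replicate 2, where Nr1d1 at 1.26 TPM took rank 3 and Per1 rank 5. Neighbouring ranks overlapped in TPM across libraries.

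Part of the signal of several members lay on transcripts annotated with a retained intron, which total RNA libraries capture along with mature mRNA. For Dbp these took 45.0 to 59.6% of the estimated reads, beside 40.4 to 55.0% on coding ones. For Per3 they took 36.4 to 61.8%, beside 16.4 to 53.9% on coding ones, and outnumbered the coding reads in all libraries but sham replicate 3. The share was 19.0 to 25.1% for Clock, 12.0 to 24% for Arntl and 17.7 to 28.3% for Nr1d2, with overlapping groups in each. For Cry1 it was 10.9, 12.2 and 14.5% after stimulation and 10.5, 3.5 and 10.9% in sham, where the groups met at 10.9%. Per2, Nr1d1, Npas2 and Per1 have no retained-intron transcript in the deposited tables.

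The E-box of Per1 begins 166 bases before the RefSeq start of the window shown. The other Per1 window, 69099902 to 69100151, held no E-box. The E-box of Cry1 begins 60 bases before its start. The D-boxes of Per3 begin 205 and 158 bases before its start. The Nr1d1 stretch holds none of the letters searched. The TGACG core of Cry1 begins 8 bases before the start, beyond the end of the stretch shown. Per1 and Cry1, which share the E-box and that core, were both low in sham replicate 2, at -0.54 each from summed reads. Per2, which had no window, was low there too, at -0.61. Whether the letters bear on these levels was not tested. Per3 with its D-boxes was high there, at 0.70, but so were Nr1d1 at 1.5, Npas2 at 0.66 and Arntl at 0.48, whose windows held none of the letters searched.

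Of 21 other clock genes, all passed the filter, 14 were lower and 7 higher in the gene table, and 0 had an adjusted p under 0.05 by edgeR (0.0% of all genes). Their median log2 fold change was -0.20, beside -0.02 over all genes. At an unadjusted p under 0.05 there was 1 of the 21, lower, beside 4.41% of all genes, a share close to that of the list. It was Csnk1e, the kinase that marks PER for degradation. It stood at 21.1, 24.8 and 39.5 CPM after stimulation and 36.4, 72.6 and 45.4 CPM in sham mice. Its log2 fold change of -0.85 (SE 0.34; adjusted p = 0.668, edgeR) was -0.51 without sham replicate 2 and -0.22 in its longest coding transcript alone. Bhlhe40, a repressor that competes for E-boxes, was lower in every stimulated library, as in 5.89% of all genes. It stood at 79.2 to 98.0 CPM against 107 to 136 CPM (log2 fold change -0.46, SE 0.23). Its relative Bhlhe41 leaned the other way, at 0.38 (SE 0.29) with overlapping groups, and was 0.13 without stimulated replicate 3.

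Rora, an activator of Arntl, had -0.53 (SE 0.33) and overlapping groups, and -0.28 without stimulated replicate 2. The PAR bZIP genes Tef and Hlf, relatives of Dbp, had -0.56 (SE 0.36) and -0.25 (SE 0.65), and their antagonist Nfil3 had -0.01 (SE 0.22). Tef was -0.26 without stimulated replicate 1. From summed reads Tef had -0.30 (SE 0.24) and Hlf -0.44 (SE 0.36). Usp2, a deubiquitinase under clock control, had -0.83 (SE 0.44), -0.44 without sham replicate 2, and -0.35 (SE 0.31) from summed reads. The repressor Ciart, at 12.7, 9.21 and 13.0 CPM against 21.3, 6.72 and 14.9 CPM, was lowest in sham replicate 2, as Per2 and Cry1 were. It had -0.30 (SE 0.40) in the gene table and -0.03 (SE 0.40) from summed reads. Cry2 had 0.15 (SE 0.33) in the gene table and -0.30 (SE 0.23) from summed reads, the reverse of Cry1.

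Genes that answer to the acute inputs of Per1 and Per2 were counted for comparison. Of 8 glucocorticoid targets other than Per1, 5 were higher, 4 of them at an unadjusted p under 0.05 by edgeR (2.64% of all genes) and 0 after adjustment. The other 4 were Tsc22d3 at 0.18, Sgk1 at -0.20, Klf9 at -0.27 and Dusp1 at -0.39. Dusp1 was lower in every stimulated library, as in 5.89% of all genes. The first 4 were Fkbp5, a chaperone of the receptor (log2 fold change 1.92, SE 0.30), the transcription factor Zbtb16 (1.91, SE 0.37), and the metallothioneins Mt1 (1.61, SE 0.36) and Mt2 (2.63, SE 0.60). In all 4 the groups did not overlap, as in 6.12% of all genes with stimulated above. Since these 4 were picked by smallest p, that separation adds no support of its own. In its longest coding transcript alone Mt1 had 0.26 (SE 0.49). DESeq2 did call these 4, with adjusted p of 1.89e-05 for Fkbp5, 0.000433 for Zbtb16, 0.00448 for Mt1 and 0.000908 for Mt2. With no filter on low counts edgeR called Fkbp5, Zbtb16 and Mt1, with adjusted p of 0.00128, 0.00223 and 0.0121, but not Mt2 at 0.292. All 10 genes of the cAMP and serum response were lower, 4 at an unadjusted p under 0.05 (4.41% of all genes) and 0 after adjustment, with a median of -0.54. Per1, which answers to both inputs, had -0.34 and overlapping groups. Neutrophil markers differed in the same libraries, summing to 113 to 179 CPM after stimulation and 46.2 to 61.1 CPM in sham over 8 genes, with Ly6g at 0 in at least 1 library; their part in these differences was not tested.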

How the data were processed

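Estimated counts per gene in 1 table, and per-library transcript tables with TPM, estimated counts and lengths, are what the authors deposited, per the file headers. The submitters' processing notes name Trimmomatic 0.36, Salmon 0.8.2, edgeR and the build GRCm38. Gene counts divided by the authors' deposited TPM gave, after scaling per library, 1 constant per gene (within 1%) in 100% of 14096 genes above 0.1 TPM. Reads were also summed per gene from the transcript tables.

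Counts were rounded, filtered (filterByExpr, minimum count 10, minimum total 15), scaled by TMM and tested with edgeR 4.0.16 (robust quasi-likelihood, R 4.3.3), stimulated against sham, with Benjamini-Hochberg adjustment over 26559 genes at 0.05. SE is the size of the log2 fold change divided by the square root of F. The procedure was tested on simulated data. Protein comparisons were not run. Alternatives were DESeq2 1.42.0, limma 3.58.1 (voom), other scaling and filters, summed reads, a replicate block and each library left out; the longest coding transcript, and summed reads with each library left out, were added after the data were seen. Groups and replicate numbers come from the sample titles; the stated group sizes make each library a separate mouse.

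All 10 members were named. Of the other clock genes, 9 were chosen for their place in the loop and 3 by p, with 4 acute targets by p; 2 of these genes are not reported here. Thra was chosen after its values were seen. Members and lists were chosen with earlier results of these data known. Coordinates are GENCODE M21 (99.8% of identifiers matched).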

Additional observations from a re-analysis of the deposited data

How the results depend on the processing

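The count of genes with an adjusted p under 0.05 was 0 with edgeR and became 227 with DESeq2, 3 with RLE size factors and 1 with summed reads. With no filter on low counts it was 109 of 48844 genes, and it was 0 to 1 when each library was left out. The cause was not tested. The members and the other clock genes stayed at 0 called under all of these. The direction of Arntl, Clock, Per1, Per3, Nr1d1 and Nr1d2 held in every fit run. Per2 reversed to 0.64 with summed reads and 0.74 with the longest coding transcript, ran from -0.40 to 0.10 in the gene table with each library left out (0.01, 0.07 and 0.10 where reversed), and from 0.47 to 0.80 in summed reads (0.48, 0.65 and 0.66 between), where the short transcript lost its weight by construction. Cry1 reversed to 0.11 with limma voom, 0.15 with the replicate block, 0.23 with summed reads and 0.24 with the longest coding transcript. With each library left out it ran from -0.60 to 0.66 (0.04 without stimulated replicate 1) in the gene table and from 0.01 to 0.43 (0.08, 0.19, 0.25 and 0.39 between) in summed reads. Npas2 ran from -0.95 to 0.11 (0.10 without sham replicate 2) and in summed reads from -0.70 to 0.10 (0.03 and 0.05 also reversed), and Dbp in summed reads from -0.22 to 0.06. Cry2 reversed to -0.30 with summed reads and -0.28 with the longest coding transcript, and ran from -0.10 to 0.45 (-0.03 without sham replicate 1). Ciart reversed to 0.18 with the longest coding transcript and ran from -0.62 to 0.11. Hlf ran from -0.89 to 0.21 (0.02 and 0.07 also reversed). Nfil3 turned to 0.01 with DESeq2, RLE size factors and summed reads, 0.04 with no filter and 0.09 with the longest coding transcript, and ran from -0.12 to 0.07 (0.01 and 0.05 also reversed). The deviations of same-numbered libraries from their group means had correlations of 0.32, -0.16 and 0.13. Differently numbered libraries had -0.33 to 0.23. Deviations from a mean of 3 libraries are tied to each other, so these values cannot decide whether the numbers pair them. With the replicate block 0 genes were called, and Nr1d1 had -1.38. Depth limits Npas2 most, at 58 to 156 reads per library.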

Other observations

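Ratios between pairs of members were looked at after their values were seen, and are given as description. The ratio of Arntl to Nr1d1, genes of opposite phase, was 2.53, 3.62 and 2.34 in stimulated replicates 1, 2 and 3 and 1.72, 0.948 and 1.47 in sham replicates 1, 2 and 3 from summed CPM, and 2.18 to 3.70 against 0.939 to 1.73 in the gene table. Since Nr1d1 alone already separated the groups, the ratio adds no independent separation. The ratio of Per1 to Per2 was 8.27, 12.3 and 8.51 against 17.9, 14.0 and 25.7 from summed CPM, but overlapped in the gene table, at 2.58 to 4.45 against 3.62 to 4.96, where the 231-base Per2 transcript sets the denominator. There too Per2 alone already separated the groups from summed reads. The ratio of Per1 to Nr1d1 overlapped under both countings, at 8.36 to 19.7 against 1.96 to 10.2 from summed CPM. The ratio of Nr1d2 to Nr1d1 was 2.27 to 2.53 against 0.864 to 1.75 from summed CPM, again with Nr1d1 as the denominator.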
